A study of Mus musculus with 2 samples.

Results

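The genes described are 10 genes of protein folding and stress in the endoplasmic reticulum (ER), followed in single multipotent progenitors of mouse bone marrow. They were taken by symbol, 10 of the 27998 genes in the count table. No measured value entered that rule, but the genes were chosen with earlier results of these data known. Of these, 7 encode chaperones or folding enzymes of the ER lumen (Hspa5, Hsp90b1, Calr, Sdf2l1, Pdia3, Pdia4 and Pdia6) and 3 encode transcription factors of the ER stress response (Xbp1, Ddit3 and Atf4). The series held 1 sample of C57BL/6 Spp1-/- mice, which lack osteopontin, a secreted matrix protein and cytokine, and 1 sample of C57BL/6 wild-type mice. Both groups had received thioglycollate, a peritoneal irritant, by intraperitoneal injection, and marrow was taken 20 hours later. The labels give the sort as Lin– Sca-1+ c-kit+ CD34+ Flt3L+. Single cells were captured in droplets and the 3-prime ends of their mRNAs counted, each captured molecule by its unique molecular identifier (UMI). The sources used here give neither the number of animals per sample nor their age.

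The deposited counts came in 1 matrix with 2 libraries, and no label or file ties a library to a genotype. The libraries are called library 2 and library 1, ratios are library 2 over library 1, and no difference is given a direction by genotype. With 1 library per genotype there is no replicate and no test. Intervals are exact 95% Poisson or binomial intervals and cover counting error only. Genotype, animal, sorting and preparation cannot be told apart between the libraries. Library 2 had 4570 kept cells, 18750468 UMIs and a median of 3836 UMIs per cell, and library 1 had 3253 kept cells, 10118499 UMIs and a median of 2830. The same barcode sequence occurred in both libraries 32 times. All 5 sort markers were detected, with Cd34 at 457 and 413 CPM (UMIs per 1000000 UMIs of the library) and Flt3 at 141 and 122 CPM in library 2 and library 1. Plasma cells, secretory cells with much ER, left little trace: over kept cells Jchain had 0 UMIs in both libraries, and Sdc1 had 9.60 and 7.81 CPM.

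Proteins bound for secretion, for granules or for the cell surface are folded in the ER. Hspa5 (BiP) and Hsp90b1 (GRP94) are its HSP70- and HSP90-class chaperones, Calr (calreticulin) binds glycoproteins, and the Pdia genes encode disulphide isomerases, of which Pdia3 acts on the glycoproteins that calreticulin holds. Sdf2l1 is a partner of the HSP70 system of the ER. When unfolded proteins accumulate, BiP leaves the sensors IRE1, ATF6 and PERK. IRE1 splices the Xbp1 mRNA, ATF6 is cut to a transcription factor, and PERK slows translation while favouring that of Atf4, whose product can induce Ddit3 (CHOP), linked to cell death under lasting stress. Counts of 3-prime ends show neither splicing of Xbp1 nor translation of Atf4.

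ATF6 and the spliced form of XBP1 act through a promoter motif called the ER stress response element (ERSE), which reads CCAAT, then 9 bases of any kind, then CCACG. An exact match, on either strand, was looked for from 250 bases before to 50 bases after the RefSeq start of each gene (GRCm38.p6), and all 10 genes had such a window. The element stood in 4 of the 7 chaperone promoters and in 0 of the 3 transcription factor promoters, against 39 of 32851 promoters in the table (0.119%). The 5 elements are shown because they are what these 4 promoters share, read 5′ to 3′ on the strand that matches, with the fixed letters in capitals. Positions count from the RefSeq start, and the element of Hspa5 lies downstream of the GENCODE start of that gene, inside its transcript.
Hspa5, bases -65 to -47 before the start: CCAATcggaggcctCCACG
Hsp90b1, bases -212 to -194: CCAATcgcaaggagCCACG
Hsp90b1, bases -107 to -89, on the opposite strand: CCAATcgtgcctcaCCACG
Calr, bases -162 to -144, on the opposite strand: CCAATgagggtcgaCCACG
Pdia6, bases -98 to -80: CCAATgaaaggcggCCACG

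The promoters of 3 of these genes are given (that of Hspa5 is not, since its element lies in a stretch that GENCODE counts as transcribed) with their surroundings, from the first base of the window to the last one that neither RefSeq nor GENCODE counts as transcribed, on the strand of the gene. Capitals mark the fixed letters of the element, which read CGTGG and ATTGG where it lies on the opposite strand.
Hsp90b1, GRCm38.p6 chr10:86705510-86705694, minus strand: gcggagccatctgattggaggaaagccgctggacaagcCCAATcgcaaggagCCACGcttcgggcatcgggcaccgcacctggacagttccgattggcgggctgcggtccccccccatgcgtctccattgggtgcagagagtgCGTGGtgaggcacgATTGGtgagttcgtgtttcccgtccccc
Calr, GRCm38.p6 chr8:84846935-84847181, minus strand: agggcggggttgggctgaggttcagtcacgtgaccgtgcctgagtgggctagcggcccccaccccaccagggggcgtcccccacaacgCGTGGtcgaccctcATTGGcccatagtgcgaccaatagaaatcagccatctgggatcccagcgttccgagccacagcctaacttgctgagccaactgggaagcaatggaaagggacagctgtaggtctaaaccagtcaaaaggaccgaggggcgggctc
Pdia6, GRCm38.p6 chr12:17266339-17266544, plus strand: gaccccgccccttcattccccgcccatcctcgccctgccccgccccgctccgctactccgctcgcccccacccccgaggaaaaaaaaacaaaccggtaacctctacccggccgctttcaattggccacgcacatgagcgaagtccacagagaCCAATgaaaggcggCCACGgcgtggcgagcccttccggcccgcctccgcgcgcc

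Other motifs of the stress response had no exact match in the 10 windows. These were ERSE-II (ATTGG, any base, then CCACG, in 0.0365% of promoters), UPRE (TGACGTGG, 0.676%), CRE (TGACGTCA, 1.79%) and CARE (TGATGCAA, 0.895%). The CCAAT box alone, which is part of the ERSE, stood in 9 of the 10 windows, all but that of Xbp1, and in 37.4% of promoters. The absence of a match says only that these letters are not in the window. Beyond the 10 genes, the ERSE stood in the promoters of Canx, Dnajc3 and Creld2 among 7 other ER chaperone genes with a promoter in the table, and of Syvn1 and Derl3 among 9 genes of ER-associated degradation. It stood in 0 of 10 other oxidoreductase and prolyl isomerase genes and 0 of 16 genes of ER entry and N-glycosylation. It also stood in 0 of 6 sensor genes and 0 of 20 ATF4 and CHOP targets. Over these lists, ERSE-II stood in the promoters of Dnajb11 and Herpud1.

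As sums, the chaperones stood far above the transcription factors in these progenitors. Together the 7 chaperones held 0.221% of all UMIs in library 2 and 0.177% in library 1, which is 2209 and 1767 CPM, while the 3 transcription factors summed to 132 and 131 CPM. Single genes crossed this divide: Atf4, at 96.6 and 96.4 CPM, lay above Pdia4 in both libraries and above Sdf2l1 in library 1. Because each UMI stands for 1 captured 3-prime end, these levels do not grow with gene length, although capture can differ between genes. In library 2 the chaperones ran, from the highest level to the lowest, Calr, Hspa5, Pdia6, Hsp90b1, Pdia3, Sdf2l1 and Pdia4, and the order in library 1 was the same. The intervals of neighbours in this order overlapped between Hspa5 and Pdia6 in library 1, at 272 to 293 and 261 to 282 CPM, and not in library 2, at 360 to 378 and 341 to 358 CPM.

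Calr, the calcium-binding lectin of the ER, stood at 803 CPM in library 2 against 727 CPM in library 1. Hspa5 had 369 and 283 CPM, Hsp90b1 313 and 234 CPM, and Pdia6 349 and 271 CPM, in library 2 and library 1. All 4 were higher in library 2, Calr by the smallest factor. Pdia3 stood at 194 CPM in library 2 against 125 CPM in library 1, and Sdf2l1 at 140 against 89.6 CPM. Pdia4 had 40.1 and 37.7 CPM, with intervals that overlapped. The chaperones thus ran from little or no difference to ratios of about 1.56 between libraries.

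**Figure D1:**
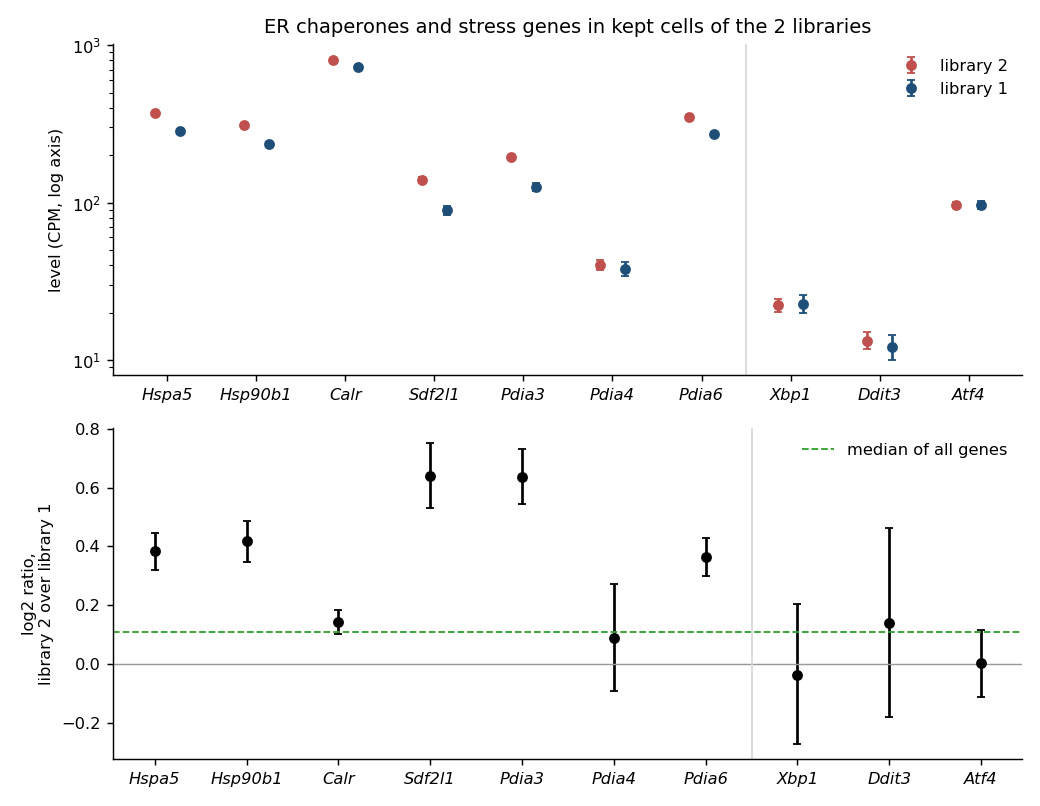
Levels of the 10 genes over kept cells (upper panel, CPM on a log axis) and log2 ratios of library 2 over library 1 (lower panel), with exact 95% counting intervals as bars. Sdf2l1 (0.64) and Pdia3 (0.64) sit highest in the lower panel, while Calr (0.14), Pdia4 (0.09) and the transcription factors lie near the dashed median of all genes (0.11).

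Between the libraries, Sdf2l1 differed 1.56-fold (1.44 to 1.68) and Pdia3 1.55-fold (1.46 to 1.66). Hsp90b1 differed 1.34-fold (1.27 to 1.40), Hspa5 1.30-fold (1.25 to 1.36), Pdia6 1.29-fold (1.23 to 1.35), Calr 1.11-fold (1.07 to 1.14) and Pdia4 1.07-fold (0.94 to 1.21). Past a 1.25-fold difference, 5 of 7 chaperones were higher in library 2 and 0 were lower, against 17.5% of 10099 genes with at least 50 UMIs higher and 7.51% lower. Their median log2 ratio was 0.38, beside 0.11 for all genes. Measured from that general shift, only Sdf2l1 and Pdia3, each 0.53 above it on the log2 scale, passed 1.25-fold, against 10.1% of genes higher and 12.2% lower. Hspa5, Hsp90b1 and Pdia6 then stood 0.27, 0.31 and 0.25 above the shift, Calr 0.03 above it and Pdia4 0.02 below it. At equal depth per cell, after thinning, 3 of 7 passed 1.25-fold (Hsp90b1, Sdf2l1 and Pdia3) and 0 were lower, against 21.2% of 8791 genes higher and 6.68% lower.

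The transcription factors had nearly equal levels in the libraries. Atf4, the effector of the PERK arm, stood at 96.6 CPM in library 2 against 96.4 CPM in library 1, a log2 ratio of 0.00 (-0.11 to 0.12). Xbp1, the effector of IRE1, had 22.3 and 22.8 CPM, a log2 ratio of -0.03 (-0.27 to 0.20). Ddit3 had 13.3 and 12.1 CPM, a log2 ratio of 0.14 (-0.18 to 0.46). None of the 3 passed 1.25-fold, but the interval of Ddit3 reaches past that size. For Atf4 the interval leaves out a 1.25-fold difference in either direction.

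The same ratios were read within cell classes gated on other genes, described further on. Summed over the 7 chaperones, library 2 over library 1 was 1.09 (1.04 to 1.15) in granule-gene cells, 1.22 (1.18 to 1.27) in Dntt cells, 1.28 (1.21 to 1.36) in Hlf cells and 1.26 (1.23 to 1.29) in cells of no gate. Pdia3 had ratios of 1.45, 1.56, 1.54 and 1.57 in these classes, and Sdf2l1 1.44, 1.56, 1.65 and 1.53. Both were therefore higher in library 2 by similar factors in these classes. In cells that met several gates, Pdia3 had a ratio of 1.45 (1.11 to 1.92) and Sdf2l1 2.02 (1.41 to 2.97). For Calr the intervals of granule-gene and Dntt cells included 1, and only Hlf cells and cells of no gate were higher in library 2: the ratios were 0.928 (0.861 to 1.002) in granule-gene cells, 1.02 (0.96 to 1.08) in Dntt cells, 1.23 (1.12 to 1.35) in Hlf cells and 1.14 (1.09 to 1.18) in cells of no gate.

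Depth differed between libraries, so each cell was also thinned at random to 2000 UMIs, which left 4016 cells of library 2 and 2444 of library 1 and set aside 554 and 809 shallower ones. At that depth a UMI of Calr was found in 73.7% and 73.1% of cells of library 2 and library 1, of Hspa5 in 46.5% and 40.4%, of Pdia6 in 47.7% and 40.3%, and of Pdia3 in 31.7% and 22.3%. Atf4 was found in 16.3% and 16.2% of cells, Xbp1 in 4.41% and 4.30% and Ddit3 in 2.39% and 2.29%. No cell type here is known to lack these genes, so the share that free RNA alone would give was not measured. A thinned cell held a median of 4 chaperone UMIs in library 2 and 3 in library 1. At most it held 26 and 20.

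The spread among cells was read at equal depth. The variance over the mean of thinned counts, which is near 1 when only sampling varies, was 1.41 and 1.27 for Hspa5 and 1.36 and 1.33 for Calr in library 2 and library 1. It was 1.15 and 1.12 for Sdf2l1, 1.03 and 1.07 for Pdia3, 1.01 and 1.03 for Xbp1 and 1.04 and 1.01 for Ddit3. This ratio grows with the mean for the same relative spread, and the means differed, from 1.53 and 1.46 UMIs for Calr to 0.025 and 0.023 UMIs for Ddit3, so the genes are not ranked by it.

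Cells were classed by marker UMIs, with no member gene used. Granule-gene cells held at least 5 UMIs of Mpo and Ctsg, enzymes of myeloid granules. Dntt cells held at least 2 UMIs of Dntt, a polymerase of lymphoid progenitors, and Hlf cells at least 1 UMI of Hlf, a stem-cell transcription factor. MHC class II cells, gated first, held at least 20 UMIs of H2-Aa, H2-Ab1, H2-Eb1 and Cd74. Library 2 and library 1 had 244 and 115 granule-gene cells, 1468 and 843 Dntt cells, 518 and 361 Hlf cells and 2 and 41 MHC class II cells. Cells that met several of the first 3 gates (234 and 104) or none (2104 and 1789) were kept apart. Of the 5 listed granule genes outside the gate, the proteases Elane and Prtn3 and the myeloid gene Ms4a3 were higher in granule-gene cells. Elane had 785 and 907 CPM there in library 2 and library 1, against 1.54 and 0.40 CPM in Dntt cells and 3.49 and 3.33 CPM in Hlf cells. Cst7 differed less over Dntt cells, at 330 and 271 CPM in granule-gene cells against 234 and 214 CPM in Dntt cells. In Hlf cells Cst7 had 104 and 89.1 CPM. Srgn, the proteoglycan core of granules, did not follow the gate, at 831 and 903 CPM in granule-gene cells, 850 and 877 CPM in Dntt cells and 945 and 867 CPM in Hlf cells.

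The chaperones were highest in granule-gene cells. Their summed level was 3325 CPM in granule-gene cells, 1962 CPM in Dntt cells and 1886 CPM in Hlf cells of library 2, and 3052, 1602 and 1471 CPM in the same classes of library 1. Granule-gene over Dntt cells, the ratio was 1.69 (1.64 to 1.75) in library 2 and 1.90 (1.80 to 2.01) in library 1. Granule-gene over Hlf cells, it was 1.76 (1.69 to 1.84) and 2.07 (1.94 to 2.21). Dntt and Hlf cells were close, at 1.04 (1.003 to 1.08) and 1.09 (1.03 to 1.15).

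Over Dntt cells, Calr and Sdf2l1 had the largest ratios of the 7 chaperones in both libraries. Calr had 1362 CPM in granule-gene cells and 656 CPM in Dntt cells of library 2, and 1467 and 642 CPM in library 1, ratios of 2.08 (1.97 to 2.19) and 2.29 (2.11 to 2.48). Sdf2l1 had 241 CPM in granule-gene cells and 113 CPM in Dntt cells of library 2, and 167 and 72.1 CPM in library 1, ratios of 2.14 and 2.31. Hspa5 had 526 CPM in granule-gene cells and 346 CPM in Dntt cells of library 2, and 439 and 253 CPM in library 1, ratios of 1.52 and 1.74. Pdia4 had ratios of 1.67 and 1.66, from 111 and 34 UMIs in granule-gene cells. The intervals of the classes did not overlap in either library for Calr, Sdf2l1 and Hspa5.

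These 4 of the 7 chaperones passed 1.5-fold in both libraries, against 2.93% of 5079 genes with at least 50 UMIs in each library over the 2 classes. Hsp90b1 (1.44 and 1.58) and Pdia6 (1.43 and 1.56) passed in library 1 only, and Pdia3 (1.29 and 1.39) in neither. All 7 chaperones were above 1 in both libraries, as were 42.8% of genes. Their median log2 ratio was 0.60 in library 2 and 0.74 in library 1, beside 0.05 and 0.07 for all genes. Set against Hlf cells, 6 of 7 passed 1.5-fold in both libraries, all but Pdia3, against 3.21% of 3798 genes. That count was 2 of 7 in cells with 2000 to 6000 UMIs, 2 without the 5% deepest cells and 4 relative to the median of all genes. Shares over all genes are not given under these settings. Over Hlf cells, Pdia4 passed only narrowly in library 1, at 1.52 (0.94 to 2.46) from 34 and 41 UMIs. Of Dntt over Hlf cells, 0 of 7 passed in either direction, against 1.72% of 5581 genes higher and 1.56% lower.

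**Figure D2:**
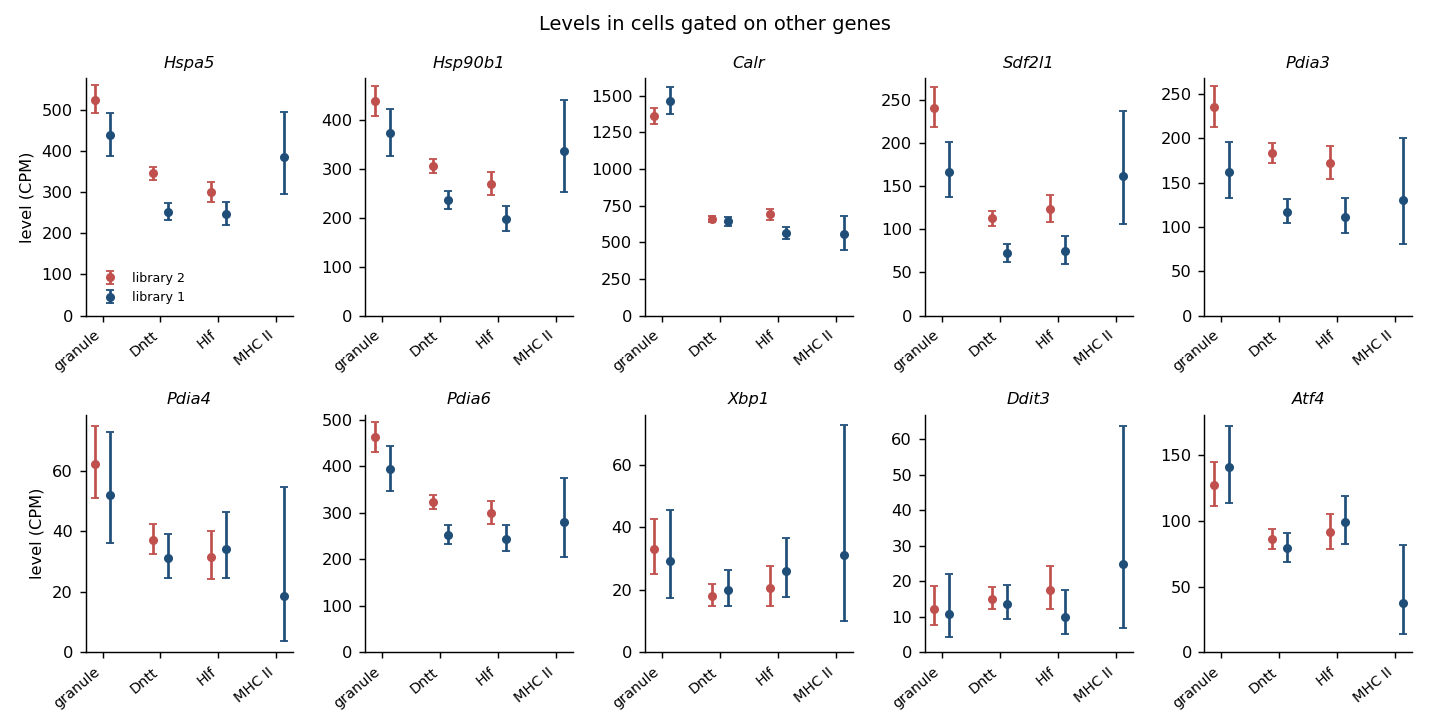
Level of each gene (CPM, axes from 0) in cells gated on granule genes, Dntt, Hlf or MHC class II genes, with exact 95% counting intervals. Calr stands at 1362 and 1467 CPM in granule-gene cells of library 2 and library 1 and at 562 to 690 CPM in Dntt and Hlf cells, while Ddit3 shows no such step. The 2 MHC class II cells of library 2 are not drawn.

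Among the transcription factors, Atf4 had 127 CPM in granule-gene cells and 86.0 CPM in Dntt cells of library 2, and 141 and 79.3 CPM in library 1, ratios of 1.48 (1.26 to 1.73) and 1.77 (1.37 to 2.28). Xbp1, which plasma cells need to build their ER, had 33.0 and 18.1 CPM in library 2 and 29.1 and 20.0 CPM in library 1, ratios of 1.83 (1.30 to 2.53) and 1.45 (0.81 to 2.51). Neither passed 1.5-fold in both libraries. In cells with 2000 to 6000 UMIs the log2 ratio of Atf4 was 0.07 in library 2 and 0.55 in library 1. Ddit3 had 12.3 and 15.0 CPM in granule-gene and Dntt cells of library 2 and 10.7 and 13.6 CPM in library 1, ratios of 0.82 (0.49 to 1.32) and 0.79 (0.29 to 1.80), from 22 and 7 UMIs in granule-gene cells. The level of Ddit3 thus showed no difference beyond counting error, and with so few UMIs a moderate one would not be detectable.

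Several measures moved with the granule gate. Granule-gene cells had a median of 7199 and 5515 UMIs in library 2 and library 1, against 3844 and 2786 in Dntt cells (the gate counts raw UMIs). Genes of G2 and mitosis summed to 4415 and 3049 CPM in granule-gene cells, against 3431 and 2199 CPM in Dntt cells. In cells with 2000 to 6000 UMIs, where medians were 5128 and 4683 UMIs for granule-gene cells and 3811 and 3035 UMIs for Dntt cells, the summed chaperones were 2892 and 2617 CPM in granule-gene cells against 1949 and 1671 CPM in Dntt cells. There all 7 stayed above 1 in both libraries, and Calr (log2 ratios 0.94 and 0.94) and Sdf2l1 (0.69 and 0.71) passed 1.5-fold in both. No share over all genes is given for this depth range, so these counts are not read against one. With cells thinned to 2000 UMIs and the classes kept, the log2 ratio of the sum was 0.66 in library 2 and 0.73 in library 1, against 0.76 and 0.93 over all UMIs. With gates set per 10000 UMIs of a cell, the log2 ratio of the sum was 1.25 in library 2 and 1.42 in library 1.

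At equal depth the upper tail was fuller in granule-gene cells. Among thinned cells of library 2, 38 of 244 granule-gene cells held 10 or more chaperone UMIs (15.6%, 11.3 to 20.7), against 41 of 1351 Dntt cells (3.03%) and 8 of 441 Hlf cells (1.81%). In library 1 the counts were 16 of 115 granule-gene cells (13.9%, 8.17 to 21.6), 10 of 661 Dntt cells (1.51%) and 3 of 278 Hlf cells (1.08%). The median was 5 chaperone UMIs in granule-gene cells and 3 in Dntt and Hlf cells of both libraries. Most granule-gene cells thus held fewer than 10, as did most cells of the other classes. The part of depth and of the cell cycle in the granule-gene difference was not tested beyond these values.

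**Figure D3:**
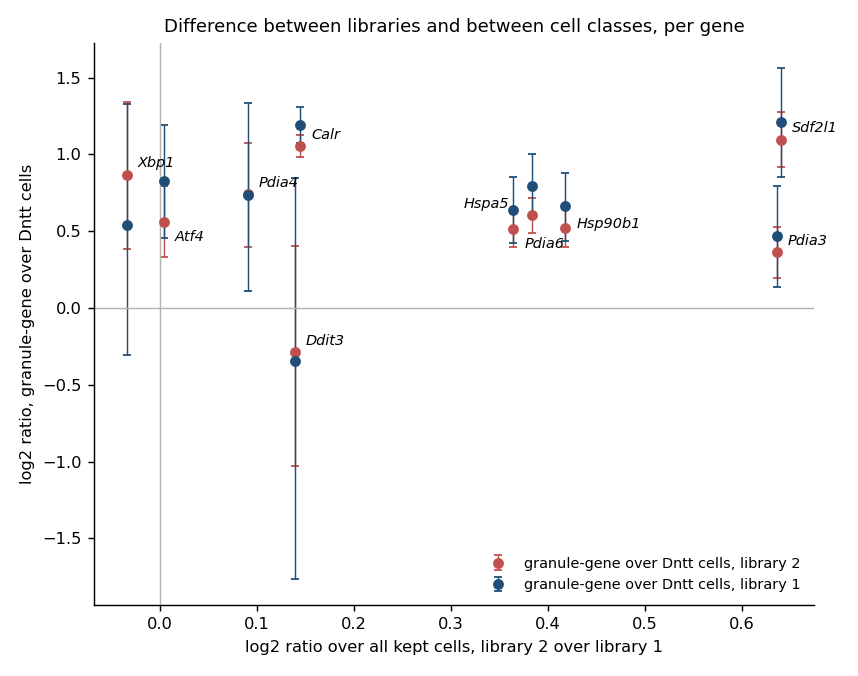
Log2 ratio of library 2 over library 1 over all kept cells (x) against log2 ratio of granule-gene over Dntt cells in each library (y) for the 10 genes, with 95% counting intervals on y. Pdia3 lies far to the right (0.64) and low (0.36 and 0.47), Calr to the left (0.14) and high (1.05 and 1.19), and Sdf2l1 is high on both axes.

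The chaperones did not keep 1 order in both contrasts. Pdia3 was among the most different between libraries, 1.55-fold, and had the smallest granule-gene ratios of the 7 over Dntt cells. Calr had, over Dntt cells, the largest granule-gene ratios but for Sdf2l1, and a library ratio of 1.11. Sdf2l1 was high in both contrasts. Both contrasts draw on the same cells, and no correlation between them is given.

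MHC class II cells could be read in library 1 only, where 41 cells held 160526 UMIs. Their summed chaperones stood at 1869 CPM, against 1766 CPM in all other kept cells, a ratio of 1.06 (0.94 to 1.19). Sdf2l1 had 162 and 88.5 CPM in MHC class II and other cells, a ratio of 1.83 (1.19 to 2.70), Hsp90b1 336 and 233 CPM, a ratio of 1.45 (1.08 to 1.89), and Hspa5 386 and 281 CPM, a ratio of 1.37 (1.05 to 1.77). Calr was lower in MHC class II cells, at 554 against 730 CPM, a ratio of 0.76 (0.61 to 0.94). Atf4 had 37.4 against 97.3 CPM, a ratio of 0.38 (0.14 to 0.84) from 6 UMIs. In granule-gene cells of library 1, Calr stood at 1467 CPM and Atf4 at 141 CPM, both above their levels in MHC class II cells. Ratios of the 2 classes have different references (all other kept cells, and Dntt or Hlf cells) and are not set against each other.

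Past 1.5-fold, 2 of the 10 genes were higher in MHC class II cells (Sdf2l1, and Ddit3 from 4 UMIs) and 2 were lower (Atf4, and Pdia4 from 3 UMIs with a ratio of 0.49, 0.10 to 1.45). Among 7307 genes, 18.6% were higher and 25.2% lower, shares near those of the 10 genes. Of 8 dendritic cell markers, 6 had a UMI in these 41 cells, with Xcr1 at 87.2, Clec9a at 43.6 and Batf3 at 131 CPM, while Cd209a and Siglech were at 0. The 2 cells of library 2 held 28 chaperone UMIs, and no ratio was read from them.

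The cell cycle was read in thinned cells, as at least 10 against fewer than 3 UMIs of G2 and mitosis genes (900 and 1725 cells of library 2, 259 and 1319 of library 1). The summed chaperones stood at 1921 CPM in cells high in these genes and 2073 CPM in low ones of library 2, and at 1792 and 1746 CPM in library 1, ratios of 0.93 (0.89 to 0.97) and 1.026 (0.955 to 1.101). Atf4 was higher in the cells with many such UMIs, with ratios of 1.54 (1.27 to 1.86) and 1.41 (1.04 to 1.89). Sdf2l1 was lower, at 0.67 (0.55 to 0.80) and 0.73 (0.50 to 1.02), and so was Xbp1, at 0.59 (0.38 to 0.90) and 0.50 (0.19 to 1.09). Other chaperones went in different directions. Hspa5 stood at 0.8004 (0.72 to 0.88) and 0.83 (0.68 to 1.003), and Hsp90b1 at 1.11 (0.995 to 1.23) and 1.28 (1.06 to 1.54). Past 1.25-fold in both libraries, 1 of the 10 genes was higher and 2 were lower, against 8.82% and 7.99% of 5092 genes. The intervals of Sdf2l1 and Xbp1 reached 1 in library 1.

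The summed chaperone level was higher in deeper cells of both libraries. In cells grouped by UMIs with limits at 2000, 4000 and 6000, from the shallowest group to the deepest, the summed level was 1826, 2018, 2133 and 2586 CPM in library 2 and 1422, 1735, 1822 and 2147 CPM in library 1. Calr ran from 582 CPM in the shallowest to 1007 CPM in the deepest cells of library 2 and from 518 to 975 CPM in library 1. Sdf2l1 ran from 71.0 to 180 CPM in library 2 and from 42.2 to 120 CPM in library 1. Hspa5 showed no such order, at 390, 368, 347 and 395 CPM in library 2 and 288, 289, 260 and 305 CPM in library 1. Nor did Pdia4, at 42.4, 34.9, 39.9 and 45.9 CPM in library 2 and 35.7, 39.4, 34.1 and 40.6 CPM in library 1. Among the chaperones, only Calr and Hsp90b1 rose at every step in both libraries. Ddit3 ran the other way, from 26.3 (16.7 to 39.5) to 9.83 (7.32 to 12.9) CPM in library 2. In library 1 Ddit3 went from 20.3 (13.1 to 29.9) to 8.65 (4.15 to 15.9) CPM, on 25 and 10 UMIs. Those intervals of library 1 overlap, and its middle groups did not fall in order, at 11.1 and 11.6 CPM. At each depth the summed level was higher in library 2.

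**Figure D4:**
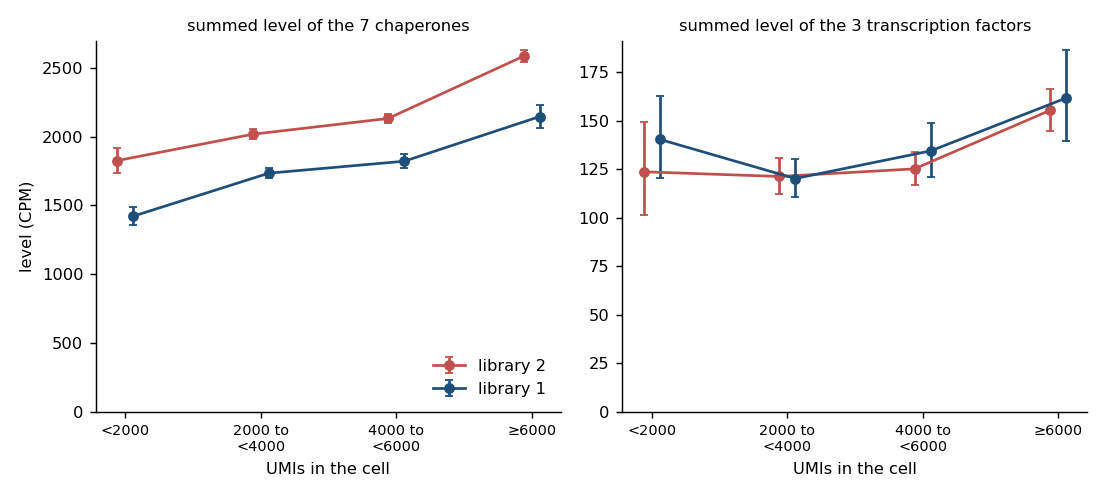
Summed level (CPM, axes from 0) of the chaperones (left) and of the transcription factors (right) in cells grouped by their UMIs, with exact 95% counting intervals. The chaperone line of library 2 lies above that of library 1 in all 4 groups (1826 against 1422 CPM in the shallowest), and the lines of the transcription factors overlap.

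Cells with a Ddit3 UMI were looked at as candidates for stress. After thinning there were 96 of 4016 in library 2 and 56 of 2444 in library 1, of which 3 and 1 held 2 UMIs and none more. Their summed chaperones stood at 2042 CPM, against 2138 CPM in cells without a Ddit3 UMI, in library 2, and at 2089 against 1800 CPM in library 1, ratios of 0.96 (0.86 to 1.06) and 1.16 (1.01 to 1.32). A list of 22 ATF4 and CHOP targets had log2 ratios of 0.00 (-0.20 to 0.19) and 0.10 (-0.18 to 0.36), and Atf4 itself had ratios of 1.09 (0.65 to 1.71) and 0.49 (0.16 to 1.14). Apart from the chaperones in library 1, these intervals include equal levels. G2 and mitosis genes had ratios of 1.04 (0.95 to 1.13) and 1.19 (1.04 to 1.34). The sum of targets rests on abundant genes such as Phgdh. In library 1, among single targets, Sesn2 had 3 UMIs in cells with Ddit3 and 7 in the others (ratio 18.3, 3.05 to 80.1), and Cebpg 6 and 61 UMIs (4.19, 1.48 to 9.67). In library 2 their ratios were 5.83 (0.64 to 25.4) and 1.05 (0.28 to 2.75). These 2 were named after their values were seen.

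Across thinned cells the 10 genes were only weakly correlated, on log2 of UMIs plus 1. Each chaperone correlated with the other 6 at Pearson's r of 0.07 to 0.18 in library 2 and 0.02 to 0.15 in library 1, highest for Calr (0.18 and 0.15) and Hspa5 (0.17 and 0.15) and lowest for Pdia3 (0.08 and 0.02) and Pdia4 (0.07 and 0.03). The transcription factors correlated with the summed chaperones at -0.02 to 0.04 and 0.02 to 0.06. Of 5024 other genes with at least 500 UMIs, those most like the summed chaperones were Ctsg (0.17 and 0.18), Mpo (0.15 and 0.16) and Manf (0.15 and 0.15), followed by Ldha, Eif5a, Ptma, Hsp90aa1, Slc25a5, Elane (0.12 and 0.13) and Atp5b. The median gene stood at 0.004 and 0.005, and 16 genes reached 0.1 in both libraries. In counts this sparse such values describe these cells and are no finding.

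Other genes of the pathway were read from lists by role, beside 17.5% of all genes higher and 7.51% lower between the libraries and 2.93% past 1.5-fold in granule-gene over Dntt cells. Among 10 other ER chaperones, 3 were past 1.25-fold higher in library 2 and 0 lower: Creld2 (log2 ratio 0.49), Dnajb11 (0.40) and Dnajc3 (0.37). The products of Dnajb11 and Dnajc3 are co-chaperones of BiP. Manf, a secreted ER stress protein, had 290 and 239 CPM in library 2 and library 1 (0.28), and Canx, the membrane partner of calreticulin, 167 and 146 CPM (0.19). The median of the list was 0.23. Of 8 of them with enough UMIs, Manf (0.77 and 0.79) and Dnajb11 (0.64 and 0.63) passed 1.5-fold in granule-gene over Dntt cells in both libraries.

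Of 11 other oxidoreductases and prolyl isomerases, 3 were higher in library 2 and 0 lower (Pdia5 0.52, Txndc11 0.52 and Tmx1 0.37), with a median of 0.02. P4hb, the archetypal disulphide isomerase, stood at 177 CPM in library 2 against 187 CPM in library 1 (-0.08), and the prolyl isomerase Ppib 484 and 477 CPM (0.02). Neither went with Pdia3. Fkbp11, an ER prolyl isomerase, was the 1 of 8 past 1.5-fold in granule-gene over Dntt cells, with log2 ratios of 2.05 and 2.90 from 192 and 74 UMIs.

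Of 19 genes of ER entry and N-glycosylation, 4 were higher in library 2 and 0 lower: the translocon subunit Sec61g (1.04), the oligosaccharyltransferase subunits Ddost (0.62) and Rpn2 (0.37), and the signal recognition particle subunit Srp9 (0.59). Sec61b, the most abundant at 785 and 863 CPM, had -0.14, and 21.9% of the 50-base stretches at its 3-prime end also occur in another gene. Subunits of the same translocon therefore differed in direction. The median was 0.19, and in granule-gene over Dntt cells 3 of 19 passed 1.5-fold in both libraries (Ssr1, Rpn1 and Stt3b). Of 11 genes of ER-associated degradation, Derl1 (0.42) and Derl2 (0.34) were higher and Syvn1 (-0.43), a ubiquitin ligase, was lower, with a median of 0.24 and 0 of 9 past 1.5-fold in granule-gene cells.

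Of 7 sensors and their processing enzymes, Atf6b (0.62) and Ern1, the gene of IRE1 (0.41, -0.20 to 1.05), were higher, with a median of 0.20. Of 3 with enough UMIs, 0 passed 1.5-fold in granule-gene over Dntt cells in both libraries. Of 18 measured ATF4 and CHOP targets, Phgdh (0.89), of serine synthesis, was higher and the amino acid transporter gene Slc7a5 (-0.38) lower, with a median of 0.14. Slc7a5 was also the 1 of 11 past 1.5-fold in granule-gene over Dntt cells in both libraries, with log2 ratios of 1.33 and 1.05. Of the 50-base stretches at the 3-prime end of Phgdh, 35.1% occur in other genes, so its counts are uncertain. None of the 10 followed genes shared such a stretch with another gene. Shares higher in library 2 ran from 1 of 18 to 3 of 10 over these other lists, on both sides of the 17.5% of all genes. With so few genes per list, no result about a list is read from these counts. The medians of these lists lay between 0.02 and 0.24, beside 0.38 for the 7 chaperones and 0.11 for all genes.

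**Figure D5:**
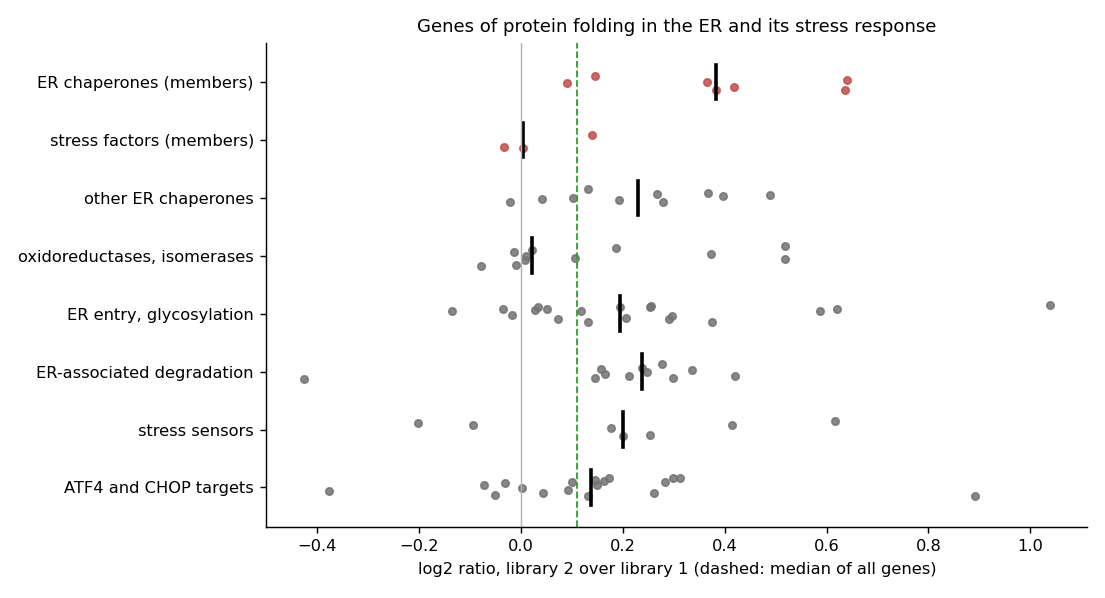
Log2 ratio of library 2 over library 1 for each gene with at least 50 UMIs, by list, with the median of each list as a bar and the median of all genes dashed (0.11). The 7 chaperones have a median of 0.38, other lists lie between 0.02 and 0.24, and the 3 transcription factors have a median of 0.00.

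Read beside the promoters, the 4 chaperones with an ERSE match had library ratios of 0.14 to 0.42 on the log2 scale and those without one 0.09 to 0.64. In granule-gene over Dntt cells of library 2, those with a match ran from 0.52 to 1.05 and the others from 0.362 to 1.096. The ranges overlapped in both contrasts. By GENCODE M21 on GRCm38, the chaperone genes lie at chr2:34771970-34777547 (Hspa5), chr10:86690209-86705509 (Hsp90b1), chr8:84841850-84846934 (Calr), chr16:17130138-17132383 (Sdf2l1), chr2:121413775-121438687 (Pdia3), chr6:47796141-47813430 (Pdia4) and chr12:17266545-17284770 (Pdia6). The transcription factor genes lie at chr11:5520659-5525893 (Xbp1), chr10:127290774-127296288 (Ddit3) and chr15:80255184-80257541 (Atf4). On the same strand, Hsp90b1 is overlapped by Gm15344 and Gm25745, Pdia4 by Mir704, and Ddit3 by another protein-coding entry of that name. Genes on the opposite strand overlap Hsp90b1 (1810014B01Rik), Pdia3 (Catsper2), Pdia6 (Atp6v1c2) and Ddit3 (Gm4189 and Mars). The sources used here do not say whether counting used strand.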

How the data were processed

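The authors deposited UMI counts per gene and cell as a single matrix of 27998 genes, made with Cell Ranger 1.1 on mm10 per the submitters' processing notes. The sources used here do not describe read filters or multi-mapping reads. Libraries were told apart by barcode suffix. Cells with at least 500 genes and under 10% mitochondrial UMIs were kept, which left 4570 of 4572 barcodes of library 2 and 3253 of 3312 of library 1. No doublet caller was run. UMIs were summed per library or class and divided by the total (CPM). Levels carry exact Poisson intervals, shares exact Clopper-Pearson intervals and ratios exact conditional Poisson intervals, all at 95%. With 1 library per group no test was made. A difference was counted from 1.25-fold between libraries and from 1.5-fold in both libraries between classes, over genes with at least 50 UMIs. Python 3.11.15, numpy 2.4.6, scipy 1.17.1 and pandas 2.3.3 were used, and the ratio procedure was tested on simulated Poisson counts. Those counts held no spread among cells beyond sampling, so the test does not show how the intervals behave with such spread.

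Named genes were the 10 members, from each other list 2 to 4 genes chosen by UMIs or by size of log2 ratio, and the 10 genes that correlate best with the summed chaperones. Other genes past a threshold, where few, were named after their values were seen. The members and lists were chosen with earlier results of these data known. Gene positions and 3-prime sequences came from GENCODE M21 and promoters from RefSeq, both on GRCm38. The last 300 bases of each gene's longest transcript were searched for 50-base stretches found in other genes. Listed genes were matched by symbol, and 1 (Sels) had no match. Alternatives covered the cell filter, the averaging, thinning, depth, totals, G2 and mitosis genes, the gates, the minimum of UMIs and centring on the median gene.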

Additional observations from a re-analysis of the deposited data

How the results depend on the processing

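Values below are log2 ratios unless said otherwise, and the cause of each move was not tested. Between libraries, the chaperone median of 0.38 moved to 0.30 in cells thinned to 2000 UMIs (gates then applied to thinned counts), 0.29 with totals without ribosomal protein and mitochondrial genes, and 0.27 relative to the median of all genes. It stayed within the interval of its median gene under the other 8 alternatives. Among them, the minimums of 200 and 1 UMIs could not move it. Here and between classes, those minimums change only the genes read beside the members. The count of chaperones past 1.25-fold, 5 as reported, was 3, 3 and 2 under those settings, 4 in cells with 2000 to 6000 UMIs (without Pdia6) and 4 in cells with fewer than 3 G2 and mitosis UMIs (without Hsp90b1). Of these settings, shares over all genes are given above only for thinning and for values relative to the median of all genes. The median of the transcription factors moved to 0.15 in cells with fewer than 3 G2 and mitosis UMIs. Their count past 1.25-fold was 0 under every alternative run that could change it. With minimums of 200 and 1 UMIs for the genes read beside the members, 16.1% and 19.9% were higher and 4.23% and 16.7% lower.

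Granule-gene over Dntt cells, the summed chaperones kept their direction under every alternative run that could move them. The values ran from 0.57 to 1.25 in library 2 and 0.65 to 1.42 in library 1. The values were 1.13 and 1.29 in library 2 and library 1 with thinning before gating (69 and 31 granule-gene cells in place of 244 and 115), 0.57 and 0.65 in cells with 2000 to 6000 UMIs, 0.63 and 0.71 without the 5% deepest cells, 0.69 and 0.83 without ribosomal and mitochondrial genes, 0.83 and 0.72 in cells with fewer than 3 G2 and mitosis UMIs, 1.03 and 1.24 with stricter gates, and 1.25 and 1.42 with gates per 10000 UMIs. Relative to the median of all genes, library 2 had 0.71. With thinning after gating, chosen after seeing the data, the values were 0.66 and 0.73, and 0.73 and 0.86 over Hlf cells. There Xbp1 reversed in library 2 (-0.090, -1.18 to 0.93). Granule-gene over Hlf cells, the first 7 of these settings gave 1.19 and 1.32, 0.62 and 0.79, 0.69 and 0.81, 0.75 and 0.92, 0.92 and 0.70, 1.13 and 1.28, and 1.33 and 1.40. In library 1 it was 0.92 as a mean over cells of CPM and 0.93 relative to the median. The count of chaperones past 1.5-fold over Dntt cells, 4 of 7 as reported, ran from 1 in cells with fewer than 3 G2 and mitosis UMIs, where only 6 and 8 granule-gene cells remained, to 7 with thinning before gating and with gates per 10000 UMIs. It was 2 as a mean over cells, at 2000 to 6000 UMIs and without the 5% deepest cells, 3 relative to the median and without ribosomal and mitochondrial genes, 4 with thinning after gating and 6 with stricter gates. Over Hlf cells, 6 as reported, it was 1 with few G2 and mitosis UMIs, 2 at 2000 to 6000 UMIs and without the deepest cells, and 4 relative to the median, without ribosomal and mitochondrial genes and with thinning after gating. No shares over all genes are given for these settings, so the counts over Dntt and Hlf cells are not read against one. In cells with fewer than 3 G2 and mitosis UMIs Pdia6 over Dntt cells reversed in library 2 (-0.16, -1.38 to 0.83). Sdf2l1 reversed in library 1, to -0.70 (-6.02 to 1.83) over Dntt and -0.94 (-6.29 to 1.63) over Hlf cells. Those values of Sdf2l1 rest on 1 UMI in 8 granule-gene cells. Atf4 over Hlf cells reversed to -0.035 (-0.68 to 0.57) in library 2 at 2000 to 6000 UMIs and to -0.026 (-1.55 to 1.22) in library 1 with thinning. All these intervals include equal levels.

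Dntt over Hlf cells, the sum in library 1 moved to 0.033 with thinning and 0.040 with stricter gates and reversed to -0.024 in cells with fewer than 3 G2 and mitosis UMIs and to -0.022 with gates per 10000 UMIs. There Hsp90b1 reversed to -0.039 with thinning and -0.18 in cells with few G2 and mitosis UMIs, and Calr to -0.069 with stricter gates and -0.016 per 10000 UMIs. The intervals of these reversed values, for the sum and for both genes, include equal levels. MHC class II over other cells in library 1, 0.08 as reported, gave -0.16 with the stricter barcode filter, -0.13 at 2000 to 6000 UMIs, 0.26 as a mean over cells and 0.65 in cells with few G2 and mitosis UMIs. Leaving out a replicate could not be done with 1 library per group. No paired analysis was possible because each group has 1 sample. Depth limits Ddit3 most, with 22 and 7 UMIs in granule-gene cells.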
